A study of Homo sapiens with 9 samples.

Results

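The genes described here carry signals from Toll-like receptors, interleukin-1 family receptors and tumour necrosis factor receptors to the transcription factor NF-kB. They were taken from a fixed list of 45 genes of this pathway, which was chosen with earlier results of these data known. Of these 45 genes, 41 were measured, on 91 of the 54613 probe sets of the array, among 19775 genes in all. IRAK4, RIPK1, TRAF2 and BCL3 were not analysed here, because no probe set was assigned to them alone.

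Toll-like receptors recognise molecules of microbes, and IL-1 family receptors recognise the cytokines of that family. Most of these receptors recruit the adaptor MYD88, which brings in kinases of the IRAK family and the ubiquitin ligase TRAF6. These activate the TAK1 kinase complex and then the IKK complex, which marks IkB proteins for destruction and so frees NF-kB dimers to enter the nucleus. NF-kB also drives genes for its own inhibitors, such as NFKBIA and TNFAIP3. Keratinocytes use this pathway in skin defence and inflammation, and they store IL-1 family cytokines and the antagonist IL1RN.

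RNA came from HaCaT, an immortalised human keratinocyte line, in 3 forms with 3 arrays each. NLS-actin cells stably expressed beta-actin joined to EGFP and a nuclear localization sequence, which sends the actin to the nucleus. WT-actin cells stably expressed beta-actin joined to EGFP without that sequence. For each, a plasmid was introduced into HaCaT cells, and G418 resistance and GFP fluorescence marked the population that was kept. The parental HaCaT line was neither transfected nor selected. Each construct was represented by 1 such population, so effects of the construct and of anything else in which that population differed cannot be told apart. The sources used here call the arrays experimental replicates and do not say whether these were separate cultures, so p values measure the spread between these arrays, which may be technical.

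Levels are MAS5 signals, linear intensities that the authors scaled to an equal trimmed mean on every array (500.04 to 500.06). Where several probe sets measured a gene, the one whose log2 signal was highest on average stands for it. Lines were compared with limma, and a gene was called when its p value, adjusted by the Benjamini-Hochberg method over all 19775 genes, was below 0.05. Each log2 fold change is the mean of the line named first minus that of the line named second. With 3 arrays per line, the smallest p of an exact permutation test is 0.1, so none was run for single genes. The number of arrays limits the precision: in simulated data with 3 arrays per line, 40% of genes changed 2-fold and 82.4% of genes changed 4-fold were called for NLS-actin against parental cells. The changed genes were drawn from those above the median level of all probe sets, and each simulated array varied independently. These shares therefore do not cover dim genes or deviations that real arrays have in common.

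Array quality and cell identity were examined first. Of 10 listed keratinocyte markers, 6 were measured. All 6, among them KRT5 and KRT14, lay above the median level of all probe sets, with summed signals of 45119 to 50605 in NLS-actin cells, 39634 to 53895 in WT-actin cells and 31255 to 42840 in parental cells. Of the measured markers of 5 other cell types, COL1A1, COL3A1, MITF and FCER1G also lay above that level. MITF averaged 2064 in NLS-actin, 1968 in WT-actin and 2588 in parental cells. COL1A1 averaged 633, 563 and 608 in the same order. None of the measured marker genes of these 5 cell types was called in any comparison, which concerns differences between lines and not their level. In each line 1 array stood apart from the other 2, and these 3 arrays (NLS-actin replicate 2, WT-actin replicate 1 and parental replicate 2) deviated together along an axis that held 57.2% of the variance within lines. They also had the highest log2 ratio of 3′ to 5′ ACTB signal in their lines, a ratio used to judge the quality of RNA and labelling, for a gene that the constructs also carry. The ratio was 2.80, 3.68 and 3.0 in NLS-actin replicates 1 to 3, 3.90, 2.76 and 1.93 in WT-actin replicates 1 to 3, and 2.32, 2.99 and 2.65 in parental replicates 1 to 3.

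The smallest p values of the pathway belonged to the kinase gene IRAK2, which was lower in NLS-actin cells than in both other lines. CD14 and IL1R1, which encode receptor components at the cell surface, were higher in NLS-actin cells than in WT-actin cells. The other measured genes of the pathway, among them the adaptor MYD88 and the genes of the IKK complex, passed the test in no comparison. In NLS-actin against parental cells, 1 of the 41 genes was called (IRAK2, lower), beside 0.131% of all genes (0.111% lower). In NLS-actin against WT-actin cells, 3 were called, 2 higher and 1 lower, beside 0.728% of all genes (0.389% higher and 0.339% lower). In WT-actin against parental cells, 0 were called, beside 0.167% of all genes. The one-way analysis with Tukey's test called 0 of the 41 genes in each of the 3 comparisons, so it kept none of these limma calls. NLS-actin and WT-actin cells were set against the same parental arrays, so the 3 comparisons are not independent.

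At an unadjusted limma p below 0.05, 6 of the 41 genes passed in NLS-actin against parental cells (6.44% of all genes did), 5 passed in WT-actin against parental cells (6.69% of all genes) and 10 passed in NLS-actin against WT-actin cells (9.47% of all genes). Among the 11979 genes above the median level of all probe sets, where 38 of the 41 lay, 7.16%, 8.10% and 11.2% passed in the same order. The arrays of both lines did not overlap for 9 genes in NLS-actin against parental cells, where this held for 13.9% of all genes. The corresponding counts were 7 genes in WT-actin against parental cells (12.3% of all genes) and 13 genes in NLS-actin against WT-actin cells (13.9% of all genes). The log2 fold change was negative for 30 of the 41 genes in NLS-actin against parental cells, and for 50.6% of all genes. It was negative for 19 in WT-actin against parental cells (56.3% of all genes) and for 26 in NLS-actin against WT-actin cells (46.6% of all genes). In NLS-actin against parental cells, its median over the 41 genes was −0.16, beside −0.01 over all genes. In WT-actin against parental cells the median was 0.01, beside −0.06 over all genes, and in NLS-actin against WT-actin cells it was −0.20, beside 0.03.

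**Figure D1:**
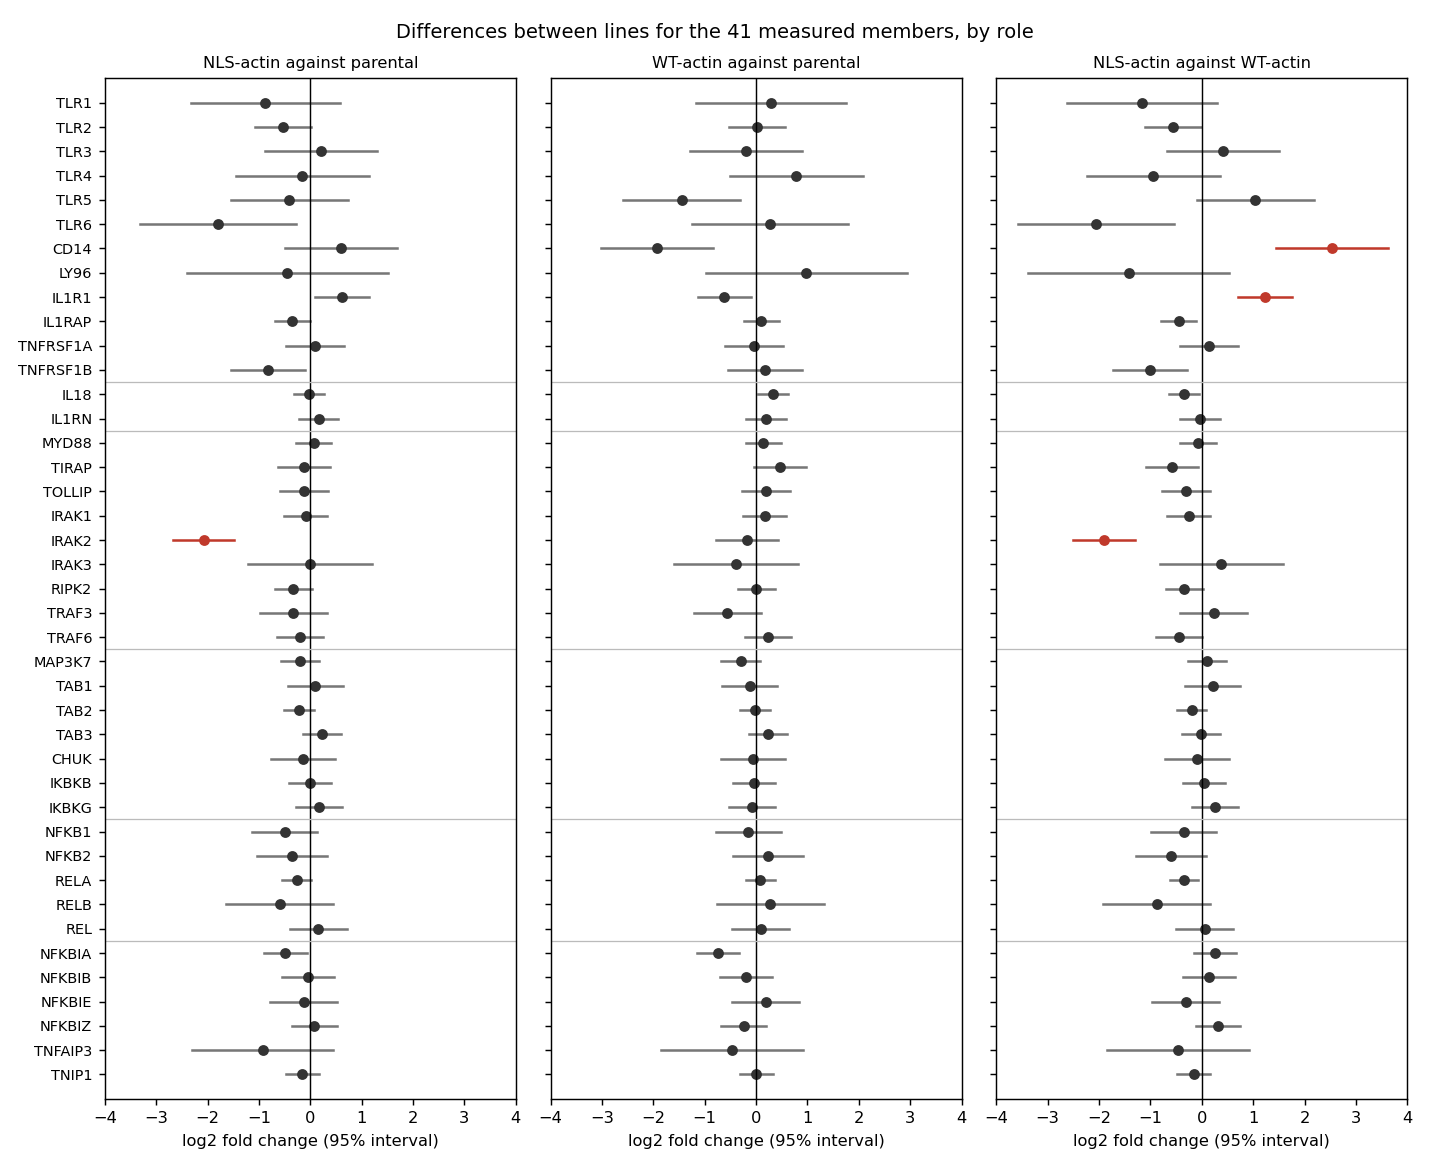
Log2 fold changes (x axis) of the 41 measured genes (rows, grouped by role) in the 3 comparisons, with 95% intervals from limma. Red marks the called genes, which were IRAK2 in NLS-actin against parental cells and CD14, IL1R1 and IRAK2 in NLS-actin against WT-actin cells.

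Receptors and co-receptors showed the widest spread between lines. Of these 12 genes, none was called against parental cells, and CD14 and IL1R1 were called higher in NLS-actin than in WT-actin cells. The median log2 fold change of the 12 genes was −0.38 in NLS-actin against parental cells, 0.06 in WT-actin against parental cells and −0.51 in NLS-actin against WT-actin cells.

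CD14 is a co-receptor that hands bacterial lipopolysaccharide to TLR4 and its partner LY96. Its signal was 94.0, 139.7 and 84.9 in NLS-actin cells, 13.8, 25.3 and 16.6 in WT-actin cells, and 76.2, 119 and 35.6 in parental cells. All 3 WT-actin arrays were thus below every array of the other lines, and the NLS-actin and parental arrays overlapped. NLS-actin cells averaged 106 ± 29.4 and WT-actin cells 18.6 ± 6.0 (SD, n = 3 each). This is a log2 fold change of 2.53 ± 0.50 (SE, 95% interval 1.44 to 3.62, limma adjusted p = 0.0437). For WT-actin against parental cells the log2 fold change was −1.93 ± 0.50 (SE, limma adjusted p = 0.296), and for NLS-actin against parental cells it was 0.60 ± 0.50 (SE, limma adjusted p = 0.877). The call between the actin lines was near the threshold. It was lost in 12 of 21 other settings, among them the removal of any 1 NLS-actin or WT-actin array and of parental replicate 1, with limma adjusted p from 0.0871 to 0.143 over these 7 removals.

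CD14 is best known from monocytes and macrophages, and their markers had low signals here. Of the 10 markers of these cells, 8 were measured, 1 (FCER1G) was above the median level and none was listed at 0. Their summed signal was 94.8 to 147 in NLS-actin cells, 94.5 to 140 in WT-actin cells and 97.4 to 126 in parental cells, ranges that overlap. FCER1G itself had the order of CD14, with 51.6, 70.8 and 58.5 in NLS-actin cells, 39.2, 31.1 and 30.6 in WT-actin cells, and 49.6, 55.8 and 42.8 in parental cells. It differed by 0.84 ± 0.39 on the log2 scale in NLS-actin against WT-actin cells (SE, limma adjusted p = 0.527), where it was the only 1 of the 8 markers with an unadjusted p below 0.05. In that comparison PTPRC, CSF1R, CD163, LYZ, AIF1 and TYROBP went the other way, at −1.56, −0.53, −0.50, −0.73, −1.11 and −0.62. ITGAM was higher, at 0.71. The part of such cells in the values of CD14 was not tested. In RNA of whole cultures, fewer cells that express a gene and less RNA of it per cell cannot be told apart. The 250 bases before the start of CD14 (RefSeq, GRCh38.p14, chr5:140633176-140633425, minus strand) are shown because CD14 had the largest log2 difference between the actin lines among the 41 genes. They hold no match to the kappaB decamer, the consensus for NF-kB, nor to the CArG box, the consensus for serum response factor.
CD14: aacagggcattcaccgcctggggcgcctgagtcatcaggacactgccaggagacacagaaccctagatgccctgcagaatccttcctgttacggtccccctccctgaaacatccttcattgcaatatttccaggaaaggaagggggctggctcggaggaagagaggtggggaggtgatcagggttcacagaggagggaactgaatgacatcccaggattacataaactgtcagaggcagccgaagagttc
No match says only that these letters are not in this window.

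IL1R1 encodes the signalling receptor for IL-1. Its signal was 548, 702 and 513 in NLS-actin cells, 211, 278 and 260.3 in WT-actin cells, and 484, 383 and 299 in parental cells. The 3 lines did not overlap, with NLS-actin highest and WT-actin lowest. NLS-actin cells averaged 588 ± 101 and WT-actin cells 249.6 ± 34.8 (SD, n = 3 each), which on the log2 scale is 1.23 ± 0.24 (SE, 95% interval 0.71 to 1.75, limma adjusted p = 0.0388). Against parental cells the log2 fold change was 0.61 ± 0.24 in NLS-actin cells (SE, limma adjusted p = 0.66) and −0.62 ± 0.24 in WT-actin cells (SE, limma adjusted p = 0.656), so neither was called. The call was lost in 14 of 21 other settings, including the removal of any 1 NLS-actin or WT-actin array and of parental replicate 1 or 2, with limma adjusted p from 0.0532 to 0.133 over these 8 removals. The dimmer probe set of IL1R1 gave 0.75 between the actin lines, with a limma adjusted p of 0.81 over all probe sets.

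IL1RAP, the accessory chain that IL1R1 needs to signal, had the opposite order. Its signal was 789, 862 and 825 in NLS-actin cells, 1083, 1108 and 1201 in WT-actin cells, and 1194, 927 and 1064 in parental cells. On this brighter probe set, all NLS-actin arrays were below those of both other lines. It differed by −0.36 ± 0.16 on the log2 scale against parental cells (SE, limma adjusted p = 0.753) and −0.45 ± 0.16 against WT-actin cells (SE, limma adjusted p = 0.32), and neither was called. A second probe set gave 879, 462 and 821 in NLS-actin cells, 1368, 980 and 592 in WT-actin cells, and 1269, 458 and 902 in parental cells. There the lines overlapped. The second probe set differed by −0.22 against parental and −0.42 against WT-actin cells (limma adjusted p = 0.953 and 0.878 over all probe sets).

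TNFRSF1B, the second receptor for tumour necrosis factor, showed the same order. Its signal was 58.2, 66.1 and 71.3 in NLS-actin cells, 121, 101 and 179 in WT-actin cells, and 117, 93.1 and 142 in parental cells, so the NLS-actin arrays did not overlap those of the other lines. On the log2 scale it differed by −0.83 ± 0.33 against parental cells (SE, limma adjusted p = 0.68) and −1.0 ± 0.33 against WT-actin cells (SE, limma adjusted p = 0.286). The first receptor, TNFRSF1A, had signals of 1853, 2916 and 1897 in NLS-actin cells, 2297, 2202 and 1505 in WT-actin cells, and 2061, 2805 and 1451 in parental cells. The 3 lines overlapped, and its log2 fold changes were 0.10 in NLS-actin against parental cells and −0.05 in WT-actin against parental cells.

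None of the 6 measured Toll-like receptors was called. TLR2, which senses bacterial lipopeptides together with TLR1 or TLR6, gave 204, 182 and 189.9 in NLS-actin cells, 206, 305 and 363 in WT-actin cells, and 286, 270.2 and 279.8 in parental cells. The NLS-actin arrays were all below those of the other lines, with a log2 fold change of −0.54 ± 0.25 against parental cells (SE, limma adjusted p = 0.775). TLR6 gave 5.87, 19.0 and 3.61 in NLS-actin cells, 48.2, 22.2 and 27.8 in WT-actin cells, and 18.6, 36.3 and 25.4 in parental cells. Its mean log2 signal lay below the median of all probe sets. The log2 fold changes of −1.80 ± 0.70 against parental cells (SE, limma adjusted p = 0.658) and −2.07 ± 0.70 against WT-actin cells (SE, limma adjusted p = 0.297) were not called.

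TLR5, the receptor for bacterial flagellin, gave 84.6, 181 and 45.8 in NLS-actin cells, 49.1, 35.6 and 46.4 in WT-actin cells, and 101, 212 and 77.1 in parental cells. WT-actin arrays were all below parental arrays, at a log2 fold change of −1.44 ± 0.52 (SE, limma adjusted p = 0.607). TLR1, TLR3, TLR4 and LY96 overlapped between lines in every comparison on their brightest probe sets. A dimmer probe set of TLR4 was higher on all WT-actin arrays than on all others. It differed by −1.85 in NLS-actin against WT-actin cells (limma adjusted p = 0.423 over all probe sets). LY96 and TLR6 were the only receptor genes at or below the median level.

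**Figure D2:**
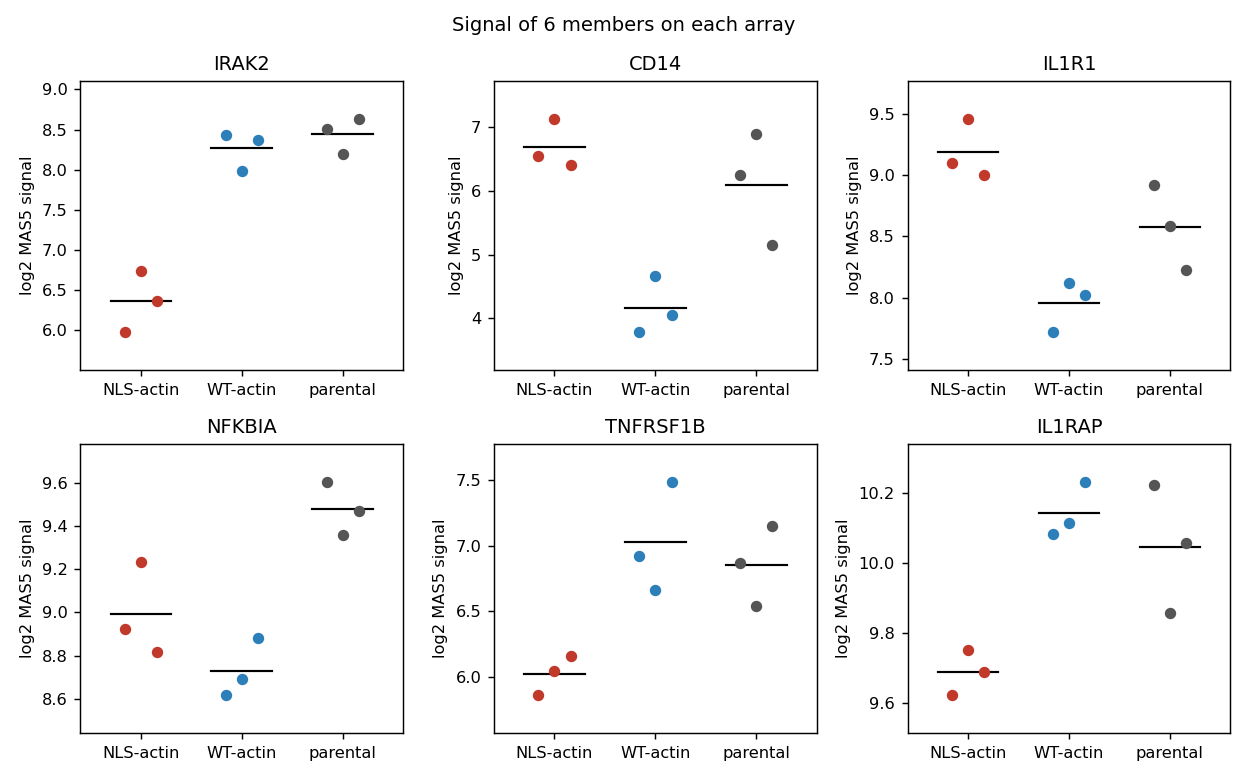
Log2 MAS5 signal (y axis, own scale in each panel) of IRAK2, CD14, IL1R1, NFKBIA, TNFRSF1B and IL1RAP on each array. Points are arrays and lines are means of 3 arrays. The NLS-actin arrays lie below all others for IRAK2, TNFRSF1B and IL1RAP, the WT-actin arrays lie below all others for CD14 and IL1R1, and the parental arrays lie above all others for NFKBIA.

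The cytokine IL18 and the antagonist IL1RN were the 2 secreted members of the list. IL18 gave 2707, 3369 and 3181 in NLS-actin cells, 3757, 4128 and 3869 in WT-actin cells, and 2918, 3267 and 3197 in parental cells. WT-actin arrays were above all others. Compared with parental cells, WT-actin cells had a log2 difference of 0.33 ± 0.13 (SE, limma adjusted p = 0.686). NLS-actin cells differed from WT-actin cells by −0.35 ± 0.13 (SE, limma adjusted p = 0.388), and neither was called.

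IL1RN, which blocks the IL-1 receptor, gave 7738, 9054 and 9289 in NLS-actin cells, 10529, 8546 and 7708 in WT-actin cells, and 5978, 8413 and 9315 in parental cells. The lines overlapped, and its log2 fold change was 0.16 ± 0.18 in NLS-actin against parental cells (SE, 95% interval −0.23 to 0.54).

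Among the adaptors and the kinases of the IRAK and RIP families, IRAK2 alone was called. Of the 12 listed genes of this role 9 were measured, and their median log2 fold change was −0.13 in NLS-actin against parental cells, 0.14 in WT-actin against parental cells and −0.31 in NLS-actin against WT-actin cells.

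IRAK2 is a kinase of the complex that MYD88 assembles, and it prolongs signalling through TRAF6. Its signal was 63.2, 107 and 82.2 in NLS-actin cells, 346, 254 and 332 in WT-actin cells, and 362, 292 and 395 in parental cells. The highest NLS-actin array was below the lowest array of either other line. NLS-actin cells averaged 84.1 ± 21.9, WT-actin cells 311 ± 49.9 and parental cells 349.9 ± 52.8 (SD, n = 3 each). The level in NLS-actin cells was 0.237 times that in parental cells, a log2 fold change of −2.08 ± 0.27 (SE, 95% interval −2.68 to −1.48, limma adjusted p = 0.0127). Against WT-actin cells it was 0.267 times as high, a log2 fold change of −1.91 ± 0.27 (SE, 95% interval −2.50 to −1.31, limma adjusted p = 0.00662). WT-actin cells differed from parental cells by −0.17 ± 0.27 (SE, 95% interval −0.77 to 0.43, limma adjusted p = 0.938).

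The difference of IRAK2 was as large without the 3 arrays that stood apart, at −2.39 against parental cells (limma adjusted p = 0.00933) and −2.01 against WT-actin cells (limma adjusted p = 0.00877). With the ACTB ratio as a covariate it was −2.14 against parental cells (limma adjusted p = 0.00554). Removal of parental replicate 1, parental replicate 3, NLS-actin replicate 1 or NLS-actin replicate 3 ended the call against parental cells, with limma adjusted p of 0.16, 0.114, 0.0564 and 0.0616 and log2 fold changes of −2.05, −1.98, −1.89 and −2.08. It was also lost with Tukey's test, without the variance trend, in a fit of 2 lines and with the mean of all probe sets. In all, the call against parental cells was kept in 13 of 21 other settings. The call against WT-actin cells held in each of the 9 removals of 1 array and was kept in 18 of the 21 settings. It was lost with Tukey's test, with a replicate block within these 2 lines and with the mean of all probe sets.

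The value rests on 1 of 3 probe sets. The other 2 probe sets of IRAK2 were dim, with signals of 0.375 to 23.3 over the 9 arrays. They gave log2 fold changes of 1.54 and 0.30 in NLS-actin against parental cells and of 2.52 and 2.35 in NLS-actin against WT-actin cells, none called over all probe sets. The mean of the 3 probe sets was −0.08 in NLS-actin against parental cells and 0.99 in NLS-actin against WT-actin cells, so the direction against WT-actin cells turned and neither difference was called.

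The 250 bases before the start of IRAK2 (RefSeq, GRCh38.p14, chr3:10164669-10164918, plus strand) are shown as those of the gene called in both comparisons of NLS-actin cells. They hold no match to the kappaB decamer or to the CArG box.
IRAK2: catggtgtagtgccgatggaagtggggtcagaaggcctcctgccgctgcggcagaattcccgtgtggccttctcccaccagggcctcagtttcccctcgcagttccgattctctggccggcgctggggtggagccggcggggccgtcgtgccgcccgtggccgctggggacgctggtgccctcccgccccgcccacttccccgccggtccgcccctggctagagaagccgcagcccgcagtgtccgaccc

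Neither of the other measured IRAK genes was called. IRAK1, the kinase that acts beside it, gave 5669, 3738 and 6438 in NLS-actin cells, 5934, 6933 and 5630.1 in WT-actin cells, and 5498, 4808 and 6225 in parental cells. The lines overlapped, and NLS-actin differed from parental cells by −0.09 ± 0.19 on the log2 scale (SE, 95% interval −0.51 to 0.33). IRAK3, a kinase-like inhibitor of the pathway, was at or below the median level on its brightest probe set and differed by −0.01 ± 0.55 (SE, 95% interval −1.21 to 1.19).

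MYD88 gave 3136, 2935 and 3059 in NLS-actin cells, 3962, 2899 and 2869 in WT-actin cells, and 3322, 2778 and 2653 in parental cells. Its log2 fold change was 0.07 ± 0.16 in NLS-actin against parental cells (SE, 95% interval −0.28 to 0.41). MYD88 and RIPK2 were chosen for per-array values after their values were seen. RIPK2, the kinase of the intracellular sensors NOD1 and NOD2, gave 1627, 1230.1 and 1722 in NLS-actin cells, 1740.3, 1865 and 2162 in WT-actin cells, and 1995, 1818 and 1906 in parental cells. NLS-actin arrays were below all others, at −0.33 ± 0.16 against parental cells (SE, limma adjusted p = 0.804).

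TIRAP, which bridges Toll-like receptors to MYD88, gave 327, 470.0 and 278 in NLS-actin cells, 567, 446 and 570.2 in WT-actin cells, and 416, 379 and 352 in parental cells. It differed by −0.59 ± 0.23 on the log2 scale in NLS-actin against WT-actin cells (SE, limma adjusted p = 0.427). Its 4 probe sets did not give 1 value, and a second probe set differed by −0.70 in NLS-actin against parental cells, where the one used differed by −0.13. TOLLIP, TRAF3 and TRAF6, an inhibitor and 2 ubiquitin ligases, overlapped between lines in all comparisons on their brightest probe sets. Dimmer probe sets did not all overlap. One of TRAF6 was lower on all NLS-actin than on all parental arrays (limma adjusted p = 0.85 over all probe sets). One of TOLLIP was lower on all WT-actin than on all parental arrays (limma adjusted p = 0.833 over all probe sets).

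No gene of the TAK1 and IKK complexes was called. TAK1 is encoded by MAP3K7 and is activated through TAB1, TAB2 and TAB3, and the IKK complex consists of CHUK, IKBKB and the scaffold IKBKG. None of these 7 genes passed even an unadjusted limma p of 0.05 in any comparison. Their log2 fold changes ran from −0.22 to 0.22 in NLS-actin against parental cells, from −0.30 to 0.23 in WT-actin against parental cells and from −0.20 to 0.26 in NLS-actin against WT-actin cells. TAB3 gave 2949, 3668 and 3591 in NLS-actin cells, 4019, 2945 and 3345 in WT-actin cells, and 3021, 3367 and 2403 in parental cells, and the lines overlapped. The interval of its difference was −0.15 to 0.59 in NLS-actin against parental cells, which does not show that the levels were equal.

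None of the 5 NF-kB subunit genes was called. Their median log2 fold change was −0.37 in NLS-actin against parental cells, 0.09 in WT-actin against parental cells and −0.35 in NLS-actin against WT-actin cells. RELA, a subunit that activates transcription, gave 2938, 2691 and 3023 in NLS-actin cells, 3494, 3642 and 3867 in WT-actin cells, and 3469.8, 3159 and 3795 in parental cells. NLS-actin arrays were below all others. RELA differed by −0.27 ± 0.13 on the log2 scale against parental cells (SE, 95% interval −0.55 to 0.01, limma adjusted p = 0.804) and −0.35 ± 0.13 against WT-actin cells (SE, limma adjusted p = 0.374).

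For NFKB1, NFKB2 and RELB, the array of each line that stood apart was also the lowest of that line. NFKB1, the precursor of p50, gave 270.1, 191 and 292 in NLS-actin cells, 219, 325 and 439 in WT-actin cells, and 369.9, 286 and 402 in parental cells. RELB, a subunit of the alternative pathway, gave 66.3, 29.1 and 79.7 in NLS-actin cells, 59.0, 113 and 142 in WT-actin cells, and 100.1, 58.4 and 91.8 in parental cells. NLS-actin replicate 2 was the lowest of all 9 arrays for both. The log2 fold changes in NLS-actin against parental cells were −0.50 ± 0.29 for NFKB1 and −0.60 ± 0.48 for RELB (SE), neither called. Per-array values of these genes are given because of the arrays that stood apart, a choice made after the values were seen.

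The IkB proteins and feedback inhibitors hold NF-kB back or end its signal, and 6 of the 7 listed were measured. None was called in the comparison of lines without a replicate term. NFKBIA, which encodes IkB-alpha and is itself induced by NF-kB, gave 486, 602 and 451 in NLS-actin cells, 394, 414 and 471 in WT-actin cells, and 778, 657 and 709 in parental cells. On this brighter probe set, all 6 arrays of the actin lines were below all 3 parental arrays. The log2 fold change was −0.49 ± 0.19 in NLS-actin against parental cells (SE, limma adjusted p = 0.66) and −0.75 ± 0.19 in WT-actin against parental cells (SE, limma adjusted p = 0.275). Between NLS-actin and WT-actin cells it was 0.26 ± 0.19 (SE, 95% interval −0.15 to 0.67). The dimmer probe set of NFKBIA gave −1.02 in NLS-actin and −0.63 in WT-actin cells against parental cells, neither called over all probe sets. On that probe set the WT-actin and parental arrays overlapped.

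TNFAIP3 encodes A20, an enzyme that edits ubiquitin chains and shuts NF-kB signalling down. Its signal was 1173, 291 and 920.1 in NLS-actin replicates 1 to 3, 442, 953 and 1976 in WT-actin replicates 1 to 3, and 1572, 577 and 2403 in parental replicates 1 to 3. The lines overlapped, and within each line the array that stood apart was the lowest. The log2 fold change was −0.93 ± 0.63 in NLS-actin against parental cells (SE, limma adjusted p = 0.851). When replicate numbers entered the fit of these lines as a block it was −0.93 ± 0.17 and was called (SE, limma adjusted p = 0.012), a fit that called 1.91% of all genes. With the ACTB ratio as a covariate it was −0.23 ± 0.37 (SE, limma adjusted p = 0.93), and without the 3 arrays that stood apart it was −0.90 ± 0.32 (SE, limma adjusted p = 0.489). The block rests on a pairing by number that was read from these same arrays and is uncertain. TNFAIP3 was described after its values were seen.

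TNIP1, a partner of A20, gave 4273, 3694 and 4098 in NLS-actin cells, 4048, 4413 and 5010.2 in WT-actin cells, and 4102, 4104 and 5305 in parental cells, and the lines overlapped. NFKBIZ, a nuclear IkB protein, differed by 0.07 in NLS-actin against parental cells on its brighter probe set and by −1.24 on its dimmer one, neither called over all probe sets.

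NFKBIA and TNFAIP3 are textbook targets of NF-kB, and their promoters are shown for the kappaB decamers in them. The capitals mark each match, which a script found on the strand opposite to the gene. In NFKBIA (RefSeq, GRCh38.p14, chr14:35404750-35404999, minus strand) the match lies at bases −81 to −72 from the start and reads GGGAATTTCC on the opposite strand. In TNFAIP3 (chr6:137867009-137867258, plus strand) the matches lie at −67 to −58 and −55 to −46 and read GGGACTTTCC and GGGGATTTCC on the opposite strand.
NFKBIA: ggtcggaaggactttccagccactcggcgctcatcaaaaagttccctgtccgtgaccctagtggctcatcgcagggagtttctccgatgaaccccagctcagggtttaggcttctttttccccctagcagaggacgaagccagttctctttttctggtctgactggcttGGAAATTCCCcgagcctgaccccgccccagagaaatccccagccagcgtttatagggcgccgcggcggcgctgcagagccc
TNFAIP3: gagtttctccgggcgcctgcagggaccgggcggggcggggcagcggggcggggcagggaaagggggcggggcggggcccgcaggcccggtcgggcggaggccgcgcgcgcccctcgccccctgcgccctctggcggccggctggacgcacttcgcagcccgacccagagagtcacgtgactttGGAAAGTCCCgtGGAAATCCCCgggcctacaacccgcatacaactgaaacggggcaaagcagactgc
A match is a description of the sequence and not a measured site. Over windows of 300 bases (250 before and 50 after the start, both strands), the decamer was in 14 of 50 windows of the measured genes (28%) and in 3956 of all 35116 windows (11.3%). The windows covered 33 of the 41 genes, of which 12 held it: IRAK1, NFKB1, NFKB2, NFKBIA, NFKBIB, NFKBIZ, REL, TAB2, TNFAIP3, TNIP1, TOLLIP and TRAF3. The CArG box was in none of the 50 windows and in 1.29% of all windows.

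**Figure D3:**
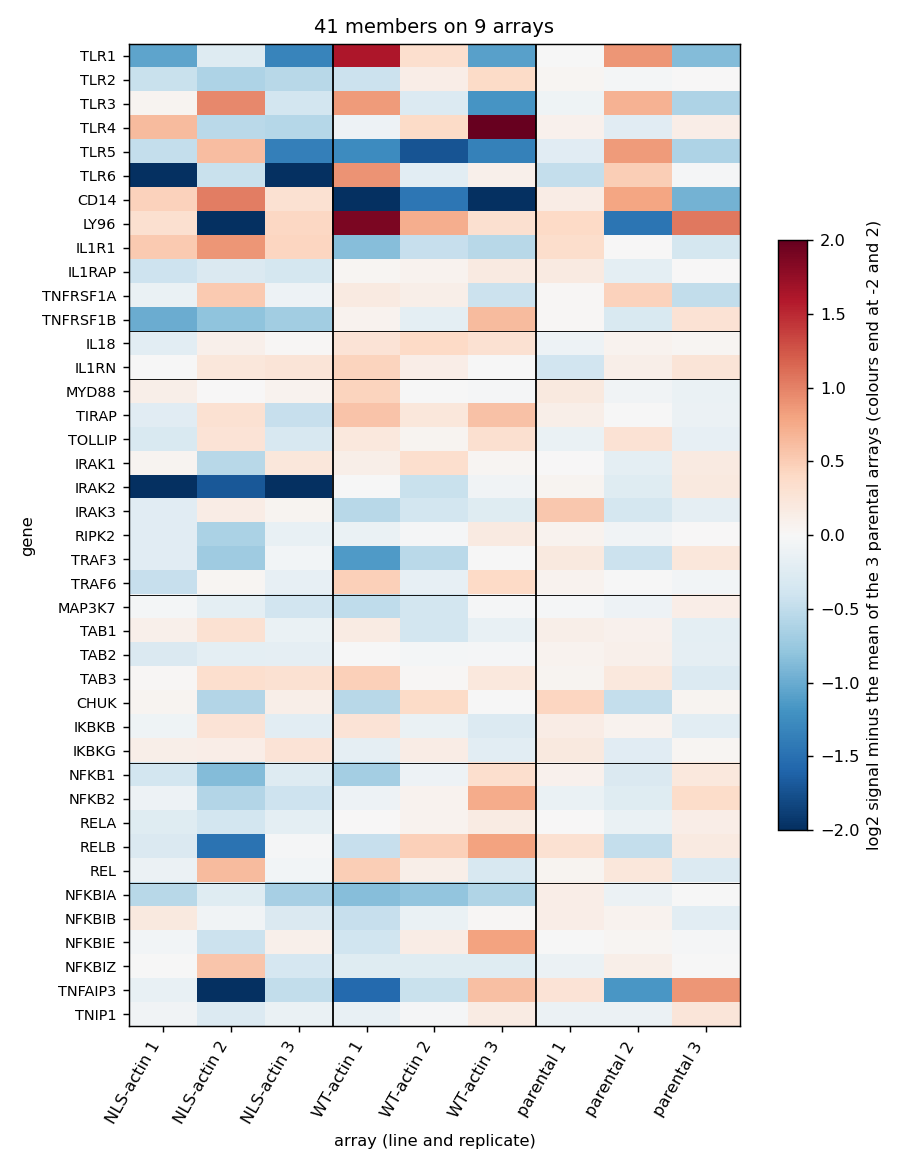
Log2 signal of each of the 41 genes (rows, grouped by role) on each of the 9 arrays (columns), minus the mean of the 3 parental arrays, with colours that end at −2 and 2. IRAK2 is deep blue on the NLS-actin arrays only, CD14 is blue on all WT-actin arrays, and TNFAIP3 is bluest within each line on NLS-actin 2, WT-actin 1 and parental 2.

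The 3 arrays that stood apart were compared with the other arrays of their lines. On all 3 of them, 9 of the 41 genes (22%, beside 9.2% of all genes) were at the lowest level of their line: TLR2, RIPK2, TRAF3, CHUK, NFKB1, NFKB2, RELA, RELB and TNFAIP3. In 8 of the 41 genes (19.5%, near the 15.5% of all genes) they were at the highest: TLR1, TLR3, TLR5, TLR6, TNFRSF1A, TAB3, REL and NFKBIZ. The other genes were in neither group. Of the 41 genes 38 lay above the median level, beside 11979 of all 19775, so all genes are not a like background for these shares. TNFAIP3 had the widest shift of the first group, at −1.23, −1.09 and −1.17 on the log2 scale from the mean of its line in NLS-actin replicate 2, WT-actin replicate 1 and parental replicate 2. RELB was at −0.88, −0.73 and −0.48 on the same arrays. IRAK2, CD14, IL1R1 and NFKBIA belonged to neither group. Which genes were lowest or highest on these arrays was not tested against the ACTB ratio. With that ratio as a covariate, the differences between lines of TLR2, TLR5, TLR6 and RELA at an unadjusted limma p below 0.05 kept their direction and were again not called.

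**Figure D4:**
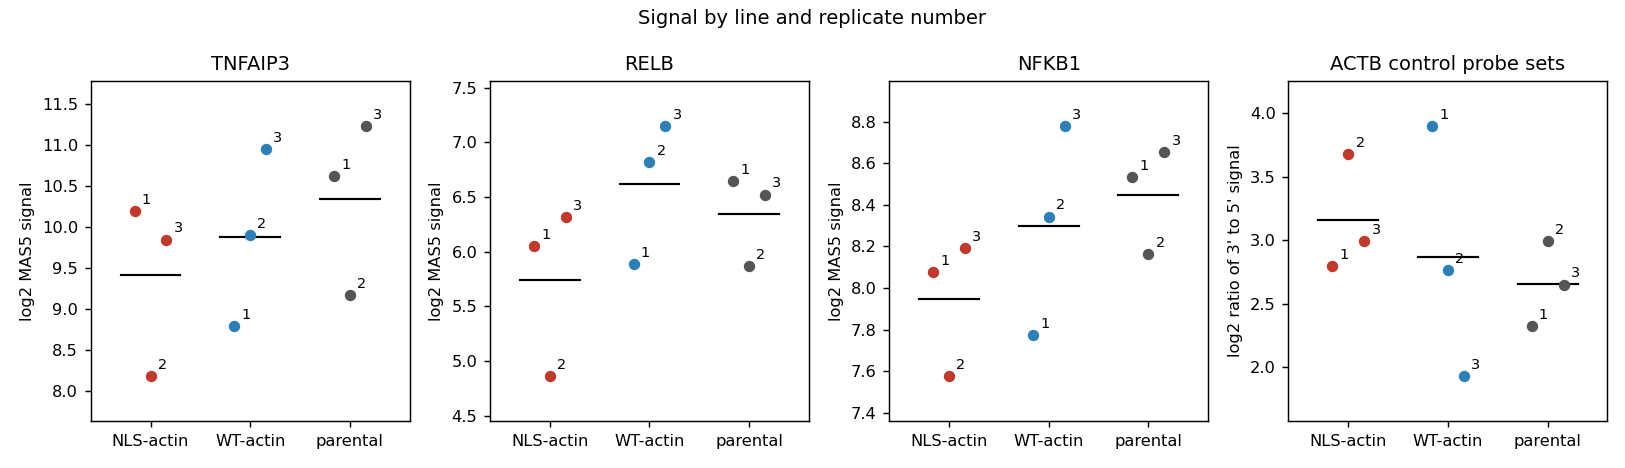
Log2 MAS5 signal (y axis) of TNFAIP3, RELB and NFKB1, and the log2 ratio of 3′ to 5′ ACTB signal, on each array. Points carry the replicate number and lines are means of 3 arrays. NLS-actin 2, WT-actin 1 and parental 2 are the lowest of their lines for the 3 genes and the highest for the ACTB ratio.

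Other genes of the same pathways, outside the 45, were examined as lists. Of 33 further Toll-like and IL-1 family genes 31 were measured, and none was called in any comparison. At an unadjusted limma p below 0.05 there were 0 of them in NLS-actin against parental cells (6.44% of all genes passed). In WT-actin against parental cells there were 3 (6.69% of all genes), IL36RN, IL1RL1 and TLR9, the last 2 at or below the median level. In NLS-actin against WT-actin cells there was 1 (9.47% of all genes). That 1 was IL18R1, a chain of the receptor for IL-18, with 77.5, 49.7 and 81.7 in NLS-actin cells, 36.4, 16 and 38.9 in WT-actin cells, and 58.0, 40.5 and 57.2 in parental cells. It differed by 1.27 between the actin lines (limma adjusted p = 0.369), and the NLS-actin arrays were above all WT-actin arrays. The medians of the list were 0.02, −0.03 and 0.12 in NLS-actin against parental, WT-actin against parental and NLS-actin against WT-actin cells.

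Of 27 further regulators of TNF receptor and NF-kB signalling 26 were measured, and none was called. MAP3K3, a kinase that can act on the IKK complex, gave 741, 701 and 745 in NLS-actin cells, 1046, 1141 and 1013 in WT-actin cells, and 1193, 1241 and 981 in parental cells. NLS-actin arrays were below all others, at −0.64 against parental cells (limma adjusted p = 0.232) and −0.55 against WT-actin cells (limma adjusted p = 0.198). The medians of this list were −0.05, −0.03 and −0.04 in the same order of comparisons.

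Of 24 genes known as NF-kB targets 22 were measured. In NLS-actin against parental cells 1 was called (CCL2, lower), beside 0.131% of all genes. There 7 had an unadjusted limma p below 0.05 (6.44% of all genes did), all lower, with a median of −0.31 over the list. In WT-actin against parental cells 2 were called (CXCL1 and CXCL8, both lower), beside 0.167% of all genes. There 4 had an unadjusted p below 0.05 (6.69% of all genes did), all lower, with a median of −0.28. In NLS-actin against WT-actin cells 2 were called, CXCL1 higher and CCL2 lower, beside 0.728% of all genes. There 5 had an unadjusted p below 0.05 (9.47% of all genes did), 3 higher and 2 lower, with a median of −0.09. CXCL1, a neutrophil chemokine, stood at 902, 1371 and 766 in NLS-actin cells, 466, 395 and 302 in WT-actin cells, and 1619.7, 1324 and 1174 in parental cells, so that WT-actin was lowest, as for CD14 and IL1R1.

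The genes most like the called ones were sought by Pearson correlation of log2 signal over the 9 arrays, among 11979 genes above the median level. For IRAK2 they were SULF1 (r = 0.977), ANKRD18A (0.973), TDRP (0.962), TMED1 (0.959) and PRTFDC1 (0.958). For CD14 they were SLC16A14 (r = 0.965), KLK13 (0.956), SIPA1L2 (0.955), RCOR1 (0.952) and SUSD4 (0.947). For IL1R1 they were PLAAT2 (r = 0.959), PACRGL (0.949), PRORP (0.945), ZC3H7A (0.941) and PALB2 (0.939). None of the 45 genes was among these 15. The points are 9 arrays of 3 lines, so a gene that separates the lines in the same way scores high, and the values are descriptions.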

How the data were processed

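Total RNA was extracted with the Agilent Absolutely RNA kit, amplified and labelled with NuGEN Ovation V2, and hybridised to Affymetrix U133 Plus 2.0 arrays. The deposited values are intensities on a linear scale that the authors computed with MAS5, and its version is not given in the sources used here. All probe sets were listed and none was filtered. Scaling to a common mean assumes that most RNA is equal between lines, and the lowest signals are the noisiest.

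Intensities were converted to log2 with no offset. Of 54613 probe sets other than the 62 controls, 41091 had 1 gene symbol, 1801 several and 11721 none listed. Symbols were updated through Entrez identifiers for 41037 probe sets and kept for 54. A gene was taken as its probe set with the highest mean log2 signal. Models were fitted with limma 3.58.1 in R 4.3.3 to all 9 arrays, with 1 mean per line and a variance trend with intensity, and p values were adjusted by Benjamini-Hochberg over 19775 genes, or over all probe sets. The script was tested on the simulated data with independently varying arrays, where 3.21% of calls were false. Python 3.11.15 with pandas 2.3.3 and with matplotlib 3.10.9 was used for the rest.

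Genes with per-array values were those with an unadjusted limma p below 0.05 in at least 1 comparison and the brightest gene of each role, with the exceptions named in the text. The genes, the lists and the alternatives were chosen with earlier results of these data known. No set test was run. The alternatives tried were a filter on dim probe sets, an offset of 8.08 (the 25th percentile of the signals) before log2, quantile normalization, no variance trend, 2 forms of a replicate block, a fit of 2 lines, the mean of all probe sets, removal of probe sets ending in _x_at or _s_at, the Tukey's test that the methods name, the ACTB ratio as a covariate, removal of the 3 arrays that stood apart, and removal of each array in turn.

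Replicate numbers come from the labels, which do not say what a number marks. Deviations from line means correlated at 0.235, 0.75 and 0.389 between NLS-actin and parental arrays of the same number. The numbers were taken to pair these lines, but the pairing is uncertain. NLS-actin 1 correlated more with parental 3 (0.489), and parental 1 correlated more with NLS-actin 3 (0.328). The 0.75 joins arrays that stood apart, and the other such array, WT-actin 1, correlated at 0.573 with parental 2 and 0.589 with NLS-actin 2. Same-numbered WT-actin arrays correlated at −0.543 to 0.21 with NLS-actin arrays and at −0.284 to 0.484 with parental arrays and were not taken as paired. Arrays correlated at a mean of 0.968 within lines and 0.961 between lines, and no 2 arrays were identical.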

Additional observations from a re-analysis of the deposited data

Results flagged for a closer look

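For 3 genes the effects of the 2 actin constructs, each set against the parental line, differed by a test of the difference itself, which is the comparison of NLS-actin with WT-actin cells. The log2 fold change of CD14 was 0.60 in NLS-actin and −1.93 in WT-actin cells, a difference of 2.53 (limma adjusted p = 0.0437). That of IL1R1 was 0.61 in NLS-actin and −0.62 in WT-actin cells, a difference of 1.23 (limma adjusted p = 0.0388). That of IRAK2 was −2.08 in NLS-actin and −0.17 in WT-actin cells, a difference of −1.91 (limma adjusted p = 0.00662). All 3 NLS-actin arrays lay on 1 side of all 3 WT-actin arrays in each of these genes. For CD14 and IL1R1 neither effect against the parental line was called on its own.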

How the results depend on the processing

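Over 21 alternative settings, the 21 named gene comparisons gave 438 values, of which 401 kept their direction and their side of the threshold, 36 kept the direction but lost the call, and 1 reversed. The reversed value was IRAK2 in NLS-actin against WT-actin cells, 0.99 with the mean of all probe sets. Most of these comparisons were not called to begin with, so the 401 say little about how firm the calls were. Of the 21 settings, IRAK2 kept its call in 13 against parental cells and in 18 against WT-actin cells. In NLS-actin against WT-actin cells, CD14 kept its call in 9 and IL1R1 in 7. The number of pathway genes called in NLS-actin against parental cells, 1, became 0 without the variance trend, in a fit of 2 lines, with Tukey's test and when probe sets of a gene were averaged, and ran from 0 to 1 when 1 array was left out. In NLS-actin against WT-actin cells, 3 became 1 without the variance trend, in a fit of 2 lines, when probe sets of a gene were averaged and without the 3 arrays that stood apart, and 0 with Tukey's test, and ran from 1 to 3 when 1 array was left out. IRAK2 remained called in every such removal. In WT-actin against parental cells the count was 0 in every setting.

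When replicate numbers entered as a block within NLS-actin and parental cells, 2 genes were called, IRAK2 and TNFAIP3, and no other call changed in that comparison. The same block within NLS-actin and WT-actin cells, whose numbers were not taken as paired, called 0. A block over all 9 arrays changed no count. The pairing of NLS-actin and parental arrays by number is uncertain.

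Counts over all genes moved more than 1.5 times in these settings. In NLS-actin against parental cells, 26 became 10 without the trend, 15 in a fit of 2 lines, 10 with the mean of probe sets, 15 without probe sets ending in _x_at or _s_at, 4 with Tukey's test, 64 with the ACTB ratio and 378 with the block. In WT-actin against parental cells, 33 became 12 without the trend, 14 with the mean of probe sets, 8 with Tukey's test and 84 with the ACTB ratio. In NLS-actin against WT-actin cells, 144 became 76 without the trend, 67 in a fit of 2 lines, 82 with the mean of probe sets, 17 with Tukey's test, 307 with the ACTB ratio and 39 with the block. When 1 array was left out, the counts ran from 4 to 27, 9 to 42 and 66 to 124 in the same order of comparisons. A setting that drops arrays or fits fewer lines leaves fewer residual degrees of freedom, and the cause of the other changes was not tested. Dim probe sets, such as those of TLR6, LY96 and IRAK3, limit what these arrays can show.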
